A study of Mus musculus with 21 samples.

Results

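Lungs taken 12 h after 1 aspiration of a fungal extract were compared with lungs taken 12 h after its vehicle, over all genes that the arrays measure. The comparison used every array whose title names MACA or HBSS at 12 h, which were 7 of the 21 arrays of the series. MACA is a crude antigen preparation of the mould Metarhizium anisopliae, an insect pathogen, and was given at 20 µg in 50 µl of Hank's balanced salt solution (HBSS). The MACA 12 h group held 3 arrays and the HBSS 12 h group, given 50 µl of the salt solution alone, held 4. Lungs of 4 further groups entered the same model: MACA 3 h (n = 4), HBSS 3 h (n = 3), and bovine serum albumin (BSA, 20 µg in 50 µl HBSS) at 12 h (n = 4) and at 3 h (n = 3). All mice were female BALB/c of 8 weeks that received a single intratracheal aspiration, and RNA came from the homogenized whole left lung. Arrays of a group are labelled as biological replicates, but nothing used here says whether 1 array holds 1 mouse. The labels set agents of high allergenicity against agents of low allergenicity, so the question of the comparison is which lung transcripts a mould extract changes 12 h after a first exposure.

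Fungal material that reaches the airway meets epithelium and alveolar macrophages, which carry lectin, Toll-like and scavenger receptors for it. These receptors signal to NF-kB and to interferon regulatory factors. The chemokines, cytokines, acute phase proteins and interferon-stimulated genes that follow draw in neutrophils and monocytes and arm the tissue. With repeated exposure to an allergen, type 2 cytokines come to lead the response, with eotaxins, arginase and mucus genes as familiar marks. Whole lung RNA mixes all of these cells, so fewer cells of a type and less RNA per cell cannot be told apart, here or in any value below.

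Levels are given as log2 of the quantile-normalized intensity plus 16, and a difference of 2 group means on that scale is called a log2 fold. Arrays of the MACA group correlated with each other at 0.986 to 0.990, arrays of the HBSS group at 0.988 to 0.992, and arrays across the groups at 0.966 to 0.980. The median deposited intensity was 123 to 157 on the MACA arrays, against 191 to 287 on the HBSS arrays, so the arrays were scaled. Without scaling the median log2 fold of all genes was -0.57, 162 genes were called higher and 5412 lower, and the folds are to be read relative to that common shift. Genes that mark the lung were bright on all 7 arrays. Surfactant protein Sftpb stood at 12.82 to 13.04 in MACA lungs, against 12.72 to 13.02 in HBSS lungs. The club cell protein Scgb1a1 stood at 13.68 to 13.76 in MACA lungs, against 13.76 on each HBSS array, the highest level on any of them. The endothelial gene Pecam1 stood at 11.63 to 11.77 in MACA lungs, against 11.48 to 11.64 in HBSS lungs. Erythroid and platelet genes and thymus and lymph node genes, which blood or neighbouring organs would bring, gave 0 calls among 10 and 8 measured members by limma, with 1 of each list at an unadjusted p under 0.05. Of these members, 3 and 5 were under the noise level given below on all 7 arrays. Only 1 of the 8 thymus and lymph node genes had a group mean above it, so 0 calls say little for that list.

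A technical split ran through the series and along this comparison. The ratio of 2 probe sets of a spiked hybridization control was 1.74 to 1.90 on the 3 MACA arrays, against 1.13 to 1.22 on the 4 HBSS arrays, and the 21 arrays fell into a set of 13 with a high ratio and a set of 8 with a low one. Within the 7 arrays the set and the treatment cannot be told apart, and no value within a set exists. The other groups hold both sets at 2 group-time points, so the set could enter a model of all 21 arrays. That model is called the set-term fit below. Its term rests on MACA 3 h and BSA 12 h alone, where replicates 1 and 2 are in the high set and 3 and 4 in the low. Other differences among those lungs can enter the term, which was not tested. BSA 12 h replicate 1 had a Saa3 level of 11.82, against 8.12, 9.05 and 9.71 in the others. BSA 12 h replicate 4 had a Gapdh control 3′ to 5′ ratio of 1.49, against 0.92, 0.99 and 1.03. Each list count is followed by its share, by the number that the set-term fit called in that direction and by how many were shared, where these differ. HBSS replicate 3 stood apart from the other vehicle lungs for several inflammatory genes, as the values below show. Vehicle replicates 1 and 2 also parted from replicates 3 and 4. On the second principal component of the 7 arrays, their second largest axis of variation, HBSS replicates 1 and 2 lay at 12.4 and 10.8. HBSS replicates 3 and 4 lay at -10.2 and -15.4, and the MACA lungs from -9.38 to 19.4. For Gsta2, Acaa1b, Bex2, Itih2, Nqo1, Klf15, Tsc22d3 and Per1, all lower in MACA lungs, HBSS replicates 1 and 2 stood above 3 and 4. Replicates named without a time are those at 12 h.

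Of 12393 genes, 2509 passed the threshold, a Benjamini-Hochberg adjusted p under 0.05 in limma, and these made 20.2% of all genes. In MACA lungs 1258 genes were higher (10.2%) and 1251 were lower (10.1%). Changes reached 2-fold in 257 rises and 129 falls. The set-term fit called 2008 genes (16.2%), and 613 rises and 512 falls passed in both fits, with 0 genes called in opposite directions by limma. Among genes that changed at least 2-fold, 175 higher and 86 lower ones passed in both. The 3 MACA arrays did not overlap the 4 HBSS arrays for 4051 genes (32.7%). Leaving out HBSS replicate 3 gave 2161 called genes, 1064 higher and 1097 lower. Leaving out MACA replicate 2 gave 1366.

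The 20 largest rises included 3 serum amyloid genes and 8 chemokines, and the other 9 were of mixed function. Saa1, a serum amyloid apolipoprotein of the acute phase, had levels of 9.71, 10.03 and 9.81 in MACA lungs, against 5.25, 5.16, 5.85 and 4.96 in HBSS lungs. Saa3, its relative made by macrophages and epithelium, had 12.79, 13.04 and 12.90 in MACA lungs, against 8.01, 7.92, 10.74 and 6.92 in HBSS lungs. Both sets of values were apart, and HBSS replicate 3 was the highest vehicle lung for each. The rise was a log2 fold of 4.55 ± 0.49 (SE), adjusted p = 3.39e-05 for Saa1 and a log2 fold of 4.51 ± 0.81 (SE), adjusted p = 0.00125 for Saa3. Slc26a4, the epithelial anion exchanger pendrin, had 10.86, 11.17 and 10.89 in MACA lungs, against 5.92, 5.93, 8.56 and 6.42 in HBSS lungs (log2 fold 4.27 ± 0.73 (SE), adjusted p = 0.000857). Timp1, an inhibitor of matrix metalloproteinases, had 11.68, 12.25 and 12.03 in MACA lungs, against 8.14, 7.94, 9.25 and 7.74 in HBSS lungs (log2 fold 3.72 ± 0.49 (SE), adjusted p = 0.000146). In both genes 1 vehicle lung, replicate 3, lay well above the other vehicle lungs and still below every MACA lung.

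Several risers could be given only as a lower bound, because every vehicle lung lay under the noise level, an intensity of 40.9 or a log2 level of 5.83. Acod1, the enzyme that makes itaconate in activated macrophages, had 8.72, 8.60 and 8.68 in MACA lungs, against 4.00, 4.08, 5.12 and 4.00 in HBSS lungs (at least 7.14-fold higher, adjusted p = 0.00102). Tnfrsf9, a costimulatory receptor of lymphocytes, had 8.15, 8.81 and 8.48 in MACA lungs, against 4.00, 4.00, 5.62 and 4.00 in HBSS lungs (at least 6.29-fold higher, adjusted p = 0.000269). Ccl24, an eotaxin that draws eosinophils, had 6.53, 8.38 and 7.78 in MACA lungs, against 4.00, 4.00, 4.00 and 4.00 in HBSS lungs (at least 3.33-fold higher, adjusted p = 0.000173). All 4 vehicle values of Ccl24 are at the floor of the scale, where the intensity was 0. Gpr84, a medium-chain fatty acid receptor of myeloid cells, had 8.24, 7.83 and 7.66 in MACA lungs, against 4.53, 4.47, 4.76 and 4.00 in HBSS lungs (at least 4.23-fold higher, adjusted p = 1.11e-05). Marco, a scavenger receptor of alveolar macrophages, had 6.88, 7.41 and 6.86 in MACA lungs, against 4.00, 4.00, 4.10 and 4.15 in HBSS lungs (at least 2.33-fold higher, adjusted p = 0.000332). Tnf, Cxcl9, Cxcl10 and Saa2 were the other bounded genes among the 20 largest rises, and Il1rn, Cfb, Ccl2, Ccl7, Ccl3, Cxcl1 and Cxcl2 completed them. Cxcl1 (adjusted p = 0.071), Ccl3 (adjusted p = 0.138) and Cxcl2 (adjusted p = 0.131) did not pass in the set-term fit.

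**Figure D1:**
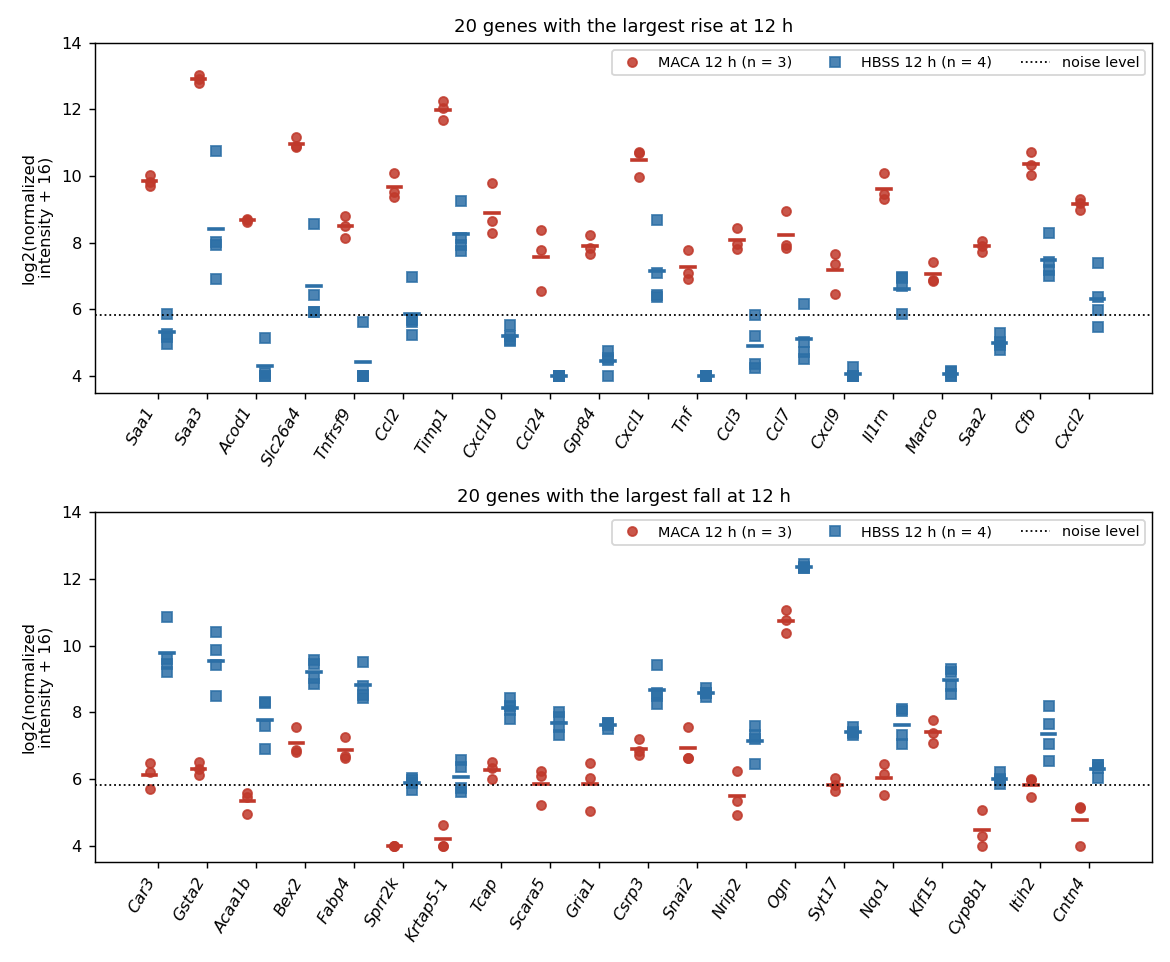
Log2(normalized intensity + 16) of each array for the 20 genes with the largest rise (upper panel) and the 20 with the largest fall (lower panel), MACA 12 h circles left of HBSS 12 h squares, bars at group means and a dotted line at the noise level of 5.83. The groups do not overlap for any of these genes because the rule asked for it, and HBSS replicate 3 is the high vehicle point of Saa3, Slc26a4, Timp1 and Tnfrsf9.

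Inflammatory CXC and CC chemokines had the 2 highest list medians, beside a median of 0 over all genes. 7 of 8 measured inflammatory CXC chemokines rose (87.5%, and 5 in the set-term fit, 4 shared), with a median log2 fold of 2.62. Cxcl10, an interferon-inducible ligand for activated T cells, had 8.27, 9.79 and 8.64 in MACA lungs, against 5.03, 5.08, 5.52 and 5.19 in HBSS lungs (at least 8.39-fold higher, adjusted p = 5.33e-05). Cxcl1, a neutrophil attractant, had 9.98, 10.72 and 10.70 in MACA lungs, against 6.42, 7.09, 8.68 and 6.35 in HBSS lungs (log2 fold 3.33 ± 0.71 (SE), adjusted p = 0.00392). Its highest vehicle lung was replicate 3. Cxcl5, an epithelial ligand for neutrophils, rose too (log2 fold 2.37, adjusted p = 0.00936). 13 of 14 measured CC chemokines rose (92.9%, and 9 in the set-term fit, 9 shared), with a median log2 fold of 2.35. Ccl2, the main attractant of monocytes, had 9.37, 10.07 and 9.53 in MACA lungs, against 5.61, 5.69, 6.96 and 5.22 in HBSS lungs (log2 fold 3.79 ± 0.50 (SE), adjusted p = 0.000141). Ccl7, which shares a receptor with it, had 7.83, 8.95 and 7.93 in MACA lungs, against 4.50, 5.01, 6.17 and 4.73 in HBSS lungs (log2 fold 3.14 ± 0.42 (SE), adjusted p = 0.000163). Ccl22, a ligand for helper T cells made by dendritic cells and macrophages, rose as well (log2 fold 2.78, adjusted p = 0.000435). The 1 CC chemokine that did not pass was Ccl20, a dendritic cell and epithelial chemokine (log2 fold -0.06, adjusted p = 1). Cxcl5 (adjusted p = 0.232) did not pass in the set-term fit.

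The receptors that read these ligands had a lower median. Of 15 measured chemokine and chemoattractant receptors, 7 rose (46.7%, and 3 in the set-term fit, 3 shared, and 4 without MACA replicates 1 or 2) and 1 fell (6.67%, and the same in the set-term fit), with a median log2 fold of 0.66. Cxcr2, the neutrophil receptor for Cxcl1 and Cxcl2, was at least 1.28-fold higher, adjusted p = 0.0164. Ccr1, a receptor for Ccl3 and Ccl7 on myeloid cells, had 8.83, 9.18 and 8.54 in MACA lungs, against 6.73, 6.97, 7.01 and 6.33 in HBSS lungs (log2 fold 2.09 ± 0.31 (SE), adjusted p = 0.000342). Cxcr2 is also a neutrophil marker, and the summed intensity of those markers was 13019 to 18034 in MACA lungs, against 3637 to 7231 in HBSS lungs. Ltb4r1, the receptor for leukotriene B4, was at least 1.71-fold higher, adjusted p = 0.00782. Ccr7, which guides dendritic cells to lymph nodes, did not pass (log2 fold 0.37, adjusted p = 0.483). 10 of 21 measured cytokines rose (47.6%, and 9 in the set-term fit, 6 shared), with a median log2 fold of 0.79. Of the 21, 8 were under the noise level on all 7 arrays. Tnf had 7.78, 7.10 and 6.90 in MACA lungs, against 4.00, 4.00, 4.00 and 4.00 in HBSS lungs (at least 2.69-fold higher, adjusted p = 0.00039). Il1rn, the antagonist that blocks the interleukin-1 receptor, had 10.08, 9.47 and 9.32 in MACA lungs, against 6.96, 6.93, 6.71 and 5.87 in HBSS lungs (log2 fold 3.01 ± 0.54 (SE), adjusted p = 0.00128). Il1b (log2 fold 2.69, adjusted p = 0.00482) and Il6 (log2 fold 2.38, adjusted p = 0.00812), central drivers of fever and the acute phase, rose, while Il18 did not pass (log2 fold -0.48, adjusted p = 0.0535). 13 of 18 measured cytokine receptors rose (72.2%, and 7 in the set-term fit, 6 shared), with a median log2 fold of 0.73. Il1r2, a decoy receptor for interleukin-1, was at least 3.05-fold higher, adjusted p = 0.00221, Csf3r, the granulocyte colony-stimulating factor receptor, had a log2 fold of 1.60, adjusted p = 0.0134, and Tnfrsf1b, the second Tnf receptor, had a log2 fold of 1.47, adjusted p = 0.000129. Cxcr2 (adjusted p = 0.174), Ltb4r1 (adjusted p = 0.145), Il1b (adjusted p = 0.0853), Il6 (adjusted p = 0.0931), Il1r2 (adjusted p = 0.06) and Csf3r (adjusted p = 0.183) did not pass in the set-term fit. Cxcr2 lost its call without MACA replicates 1 or 2 (adjusted p up to 0.0625). Csf3r lost its call without MACA replicate 1 (adjusted p = 0.074).

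Upstream of the ligands, sensors and NF-kB genes were also higher. 11 of 19 measured fungal and microbial recognition receptors rose (57.9%, and 8 in the set-term fit, 8 shared), with a median log2 fold of 0.87. The C-type lectins Clec4e (Mincle), Clec4d and Clec4n (dectin-2) recognise fungal glycolipids and mannans. Clec4e had 9.23, 8.64 and 8.38 in MACA lungs, against 6.33, 5.90, 5.99 and 5.33 in HBSS lungs (log2 fold 2.86 ± 0.58 (SE), adjusted p = 0.00268), Clec4d had a log2 fold of 2.11, adjusted p = 0.00425, and Clec4n a log2 fold of 1.77, adjusted p = 0.00133. Msr1, a scavenger receptor, had 7.90, 8.97 and 8.48 in MACA lungs, against 6.53, 6.10, 6.37 and 5.91 in HBSS lungs (log2 fold 2.22 ± 0.33 (SE), adjusted p = 0.000342). Cd14, the lipopolysaccharide co-receptor, did not pass (log2 fold 0.84, adjusted p = 0.235). 11 of 15 measured NF-kB subunits and inhibitors rose (73.3%, and 10 in the set-term fit, 10 shared), with a median log2 fold of 0.95. Nfkb2, the precursor of the p52 subunit, had 9.23, 9.63 and 9.26 in MACA lungs, against 7.85, 7.41, 7.48 and 7.36 in HBSS lungs (log2 fold 1.85 ± 0.22 (SE), adjusted p = 7.47e-05). Bcl3, a nuclear partner of p50 and p52, had a log2 fold of 1.66, adjusted p = 0.00065, Zc3h12a, an RNase that degrades cytokine messages, a log2 fold of 1.5, adjusted p = 0.000208, and Relb a log2 fold of 1.18, adjusted p = 0.000248. 11 of 18 measured JAK-STAT signalling and feedback genes rose (61.1%, and 7 in the set-term fit, 5 shared), with a median log2 fold of 0.45 (-0.21 without scaling). Socs3, an inhibitor of interleukin-6 signalling, had 10.50, 10.90 and 10.86 in MACA lungs, against 9.03, 9.12, 9.48 and 9.12 in HBSS lungs (log2 fold 1.56 ± 0.26 (SE), adjusted p = 0.000672). Pim1, a kinase induced by STAT factors, had a log2 fold of 1.41, adjusted p = 0.000851, and Socs1 was at least 2.02-fold higher, adjusted p = 0.004. Cish, a Stat5 target, did not pass (log2 fold 0.43, adjusted p = 0.0834). Clec4e (adjusted p = 0.0876) and Clec4d (adjusted p = 0.127) did not pass in the set-term fit. Cish (adjusted p = 0.0226) passed in the set-term fit.

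Interferon-stimulated genes rose in number, by moderate amounts. 17 of 22 measured antiviral interferon-stimulated genes rose (77.3%, and 10 in the set-term fit, 10 shared), with a median log2 fold of 0.87. Ifit1, which binds viral RNA that lacks a host cap, had 9.74, 10.39 and 9.94 in MACA lungs, against 8.14, 8.17, 8.48 and 8.16 in HBSS lungs (log2 fold 1.79 ± 0.23 (SE), adjusted p = 0.000116). Oas1a, an oligoadenylate synthetase that activates RNase L, had 9.13, 9.33 and 8.95 in MACA lungs, against 7.92, 7.78, 7.77 and 7.68 in HBSS lungs (log2 fold 1.35 ± 0.15 (SE), adjusted p = 5.25e-05). The groups were apart for both, and HBSS replicate 3 was the highest vehicle lung for Ifit1. Mx1, a dynamin-like antiviral GTPase, was at least 1.96-fold higher, adjusted p = 0.000672, and Oas3 was at least 1.02-fold higher, adjusted p = 0.00135. Rsad2 (viperin) did not pass (log2 fold 0.72, adjusted p = 0.14). 8 of 9 measured interferon-induced GTPases rose (88.9%, and 5 in the set-term fit, 5 shared), with a median log2 fold of 0.84. Iigp1 (log2 fold 1.19, adjusted p = 0.00283) and Igtp (log2 fold 1.17, adjusted p = 0.000555), GTPases that attack pathogen vacuoles, were the furthest of these. 9 of 14 measured interferon regulatory factors and AIM2-like sensors rose (64.3%, and 10 in the set-term fit, 6 shared), with a median log2 fold of 0.80. Zbp1, a sensor of Z-form nucleic acid, had 8.21, 8.88 and 8.39 in MACA lungs, against 6.0, 6.25, 6.22 and 5.92 in HBSS lungs (log2 fold 2.39 ± 0.23 (SE), adjusted p = 1.62e-05). Irf7, the factor that amplifies interferon production, had a log2 fold of 1.24, adjusted p = 7.74e-05. Iigp1 (adjusted p = 0.0756) did not pass in the set-term fit.

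The promoters of 4 risers are shown because they carry the letters of the 2 sites through which interferon regulatory factors and NF-kB act. Each runs from 250 bases before to 50 after a RefSeq gene start (GRCm38.p6), 5′ to 3′ along the gene, with matches in capitals. For Ifit1, Oas1a and Cxcl10 the capitals mark GAAANNGAA on either strand, the core of the interferon-stimulated response element. For Cxcl1 they mark GGGNNTTTC on either strand, the core of an NF-kB site. Matches that overlap are joined, and both motifs were shortened by 1 letter after shares had been seen, which raised the shares of all genes.
Ifit1, chr19:34640639-34640938, + strand: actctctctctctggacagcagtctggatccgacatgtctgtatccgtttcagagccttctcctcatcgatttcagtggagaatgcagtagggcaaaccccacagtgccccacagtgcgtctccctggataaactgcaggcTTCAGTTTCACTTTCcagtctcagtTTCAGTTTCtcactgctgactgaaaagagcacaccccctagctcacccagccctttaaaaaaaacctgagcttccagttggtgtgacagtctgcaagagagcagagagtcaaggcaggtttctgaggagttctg
Oas1a, chr5:120907476-120907775, - strand: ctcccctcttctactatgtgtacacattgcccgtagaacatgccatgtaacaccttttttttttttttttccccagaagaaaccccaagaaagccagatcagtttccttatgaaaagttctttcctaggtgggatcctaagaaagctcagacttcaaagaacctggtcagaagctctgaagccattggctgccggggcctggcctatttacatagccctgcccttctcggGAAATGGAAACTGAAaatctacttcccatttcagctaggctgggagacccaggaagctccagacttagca
Cxcl10, chr5:92348840-92349139, - strand: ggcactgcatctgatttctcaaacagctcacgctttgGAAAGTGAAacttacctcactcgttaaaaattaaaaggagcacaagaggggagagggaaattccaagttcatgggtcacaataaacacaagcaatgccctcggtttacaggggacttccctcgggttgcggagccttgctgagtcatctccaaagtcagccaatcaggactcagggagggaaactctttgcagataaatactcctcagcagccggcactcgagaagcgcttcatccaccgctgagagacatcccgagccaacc
Cxcl1, chr5:90890995-90891294, + strand: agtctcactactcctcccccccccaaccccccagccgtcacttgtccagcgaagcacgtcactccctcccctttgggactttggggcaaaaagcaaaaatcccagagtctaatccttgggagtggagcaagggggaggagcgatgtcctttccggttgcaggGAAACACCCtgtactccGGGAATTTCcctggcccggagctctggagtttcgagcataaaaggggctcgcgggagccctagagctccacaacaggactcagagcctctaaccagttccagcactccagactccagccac
Of 9887 measured genes with a promoter in the RefSeq table, 8.63% held GAAANNGAA and 5.15% held GGGNNTTTC in this window. Among the genes higher in MACA lungs the shares were 11.1% and 7.5%, and among the lower genes 7.54% and 5.03%. The response element letters stood before 9 of 16 antiviral interferon-stimulated genes with a promoter (56.2%) and 6 of 7 interferon-induced GTPases (85.7%). The NF-kB letters stood before 5 of 13 NF-kB subunits and inhibitors (38.5%), 3 of 5 inflammatory CXC chemokines and 2 of 8 CC chemokines. They also stood before 7 of 14 chemokine and chemoattractant receptors (50%) and before 0 of 16 JAK-STAT genes. Of 21 serum amyloid, acute phase and antimicrobial genes, 3 (14.3%) held the NF-kB letters and 1 (4.76%) the response element letters. The matches were counted whether or not a list's genes passed the test, and a match shows letters, not binding.

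Some antigen presentation genes were higher too, mostly by less than the chemokines. 7 of 13 measured genes of the immunoproteasome and of MHC class I loading rose (53.8%, and 9 in the set-term fit, 6 shared), with a median log2 fold of 0.53 (-0.14 without scaling). Tap1, a chain of the peptide transporter into the endoplasmic reticulum, had 9.15, 9.15 and 8.97 in MACA lungs, against 8.08, 7.66, 8.08 and 7.83 in HBSS lungs (log2 fold 1.18 ± 0.14 (SE), adjusted p = 5.33e-05). Tapbp, tapasin, had a log2 fold of 0.74, adjusted p = 0.00203, and Psme1, a proteasome activator subunit, a log2 fold of 0.69, adjusted p = 0.000106. 3 of 10 measured genes of MHC class II presentation rose (30%, and 6 in the set-term fit, 3 shared), with a median log2 fold of 0.17 (-0.45 without scaling). H2-DMa, which loads class II molecules with peptide, had the largest of these (log2 fold 0.79, adjusted p = 0.000609). H2-Aa, a class II chain itself, did not pass (log2 fold 0.27, adjusted p = 0.0567). Tapbp (adjusted p = 0.0959) did not pass in the set-term fit. H2-Aa (adjusted p = 0.00897) passed in the set-term fit.

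Secreted defence proteins and macrophage enzymes followed. 15 of 24 measured serum amyloid, acute phase and antimicrobial genes rose (62.5%, and 13 in the set-term fit, 12 shared), with a median log2 fold of 1.45. Saa2 had 7.73, 8.04 and 7.89 in MACA lungs, against 5.0, 4.93, 5.28 and 4.78 in HBSS lungs (at least 4.16-fold higher, adjusted p = 1.62e-05). Hpx, hemopexin, which binds free heme, had a log2 fold of 2.20, adjusted p = 7.47e-05. S100a9, a calprotectin chain of neutrophils, did not pass (log2 fold 1.62, adjusted p = 0.0642). Of 13 measured complement genes, 2 rose (15.4%, and 3 in the set-term fit, 2 shared) and 1 fell (7.69%, and none in the set-term fit, and 0 to 2 without MACA replicates 1 or 2 or HBSS replicate 4), with a median log2 fold of 0.16 (-0.50 without scaling). Cfb, factor B of the alternative pathway, had 10.02, 10.72 and 10.33 in MACA lungs, against 7.19, 6.99, 8.27 and 7.43 in HBSS lungs (log2 fold 2.89 ± 0.35 (SE), adjusted p = 7.47e-05). The other riser was C1ra, a protease of the first component (log2 fold 0.77, adjusted p = 0.000424). 8 of 16 measured genes of itaconate, nitric oxide, arginine and polyamine metabolism rose (50%, and 5 in the set-term fit, 5 shared, and 5 without MACA replicates 2 or 3), with a median log2 fold of 0.71. Arg1, the arginase of alternatively activated macrophages, had 6.84, 7.80 and 7.43 in MACA lungs, against 5.29, 4.59, 4.85 and 5.01 in HBSS lungs (at least 2.88-fold higher, adjusted p = 0.000415). Ncf4 and Ncf1 encode cytosolic subunits of the phagocyte oxidase. Ncf4 had a log2 fold of 1.48, adjusted p = 0.000225 and Ncf1 a log2 fold of 1.27, adjusted p = 0.00251, while Cybb, the membrane subunit, did not pass (log2 fold 1.21, adjusted p = 0.0541). 13 of 26 measured type 2 and alternative activation genes rose (50%, and 11 in the set-term fit, 9 shared, and 8 without MACA replicate 2), with a median log2 fold of 0.75, and 1 lower in the set-term fit. Of the 26, 7 were under the noise level on all 7 arrays. Slc26a4, Ccl24, Ccl22 and Arg1, already given, led this list, and Ccl17 followed. Ccl17, a ligand for helper T cells, had 9.08, 9.02 and 8.99 in MACA lungs, against 6.66, 6.44, 7.80 and 5.96 in HBSS lungs (log2 fold 2.31 ± 0.43 (SE), adjusted p = 0.00151). Clca1, which goblet cells secrete, missed the threshold (adjusted p = 0.0528). Of 13 measured metallothionein and oxidative stress genes, 5 rose (38.5%, and 3 in the set-term fit, 3 shared) and 1 fell (7.69%, and the same in the set-term fit), with a median log2 fold of 0.08. The metal-binding proteins Mt2 (log2 fold 1.96, adjusted p = 0.00514) and Mt1 (log2 fold 1.33, adjusted p = 0.00134) and the zinc and iron importer Slc39a14 (log2 fold 1.55, adjusted p = 4.15e-05) rose. Mt2 (adjusted p = 0.14) did not pass in the set-term fit. Clca1 (adjusted p = 0.00969) passed in the set-term fit.

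Lists of tissue genes are read against the 10.2% of all genes that were higher and the 10.1% that were lower, and several lie near those shares. Of 24 measured matrix and remodelling genes, 12 rose (50%, and 5 in the set-term fit, 5 shared) and 2 fell (8.33%, and none in the set-term fit, and 0 to 1 without MACA replicate 2 or HBSS replicate 4), with a median log2 fold of 0.41 (-0.13 without scaling). Serpina3n, a protease inhibitor, had a log2 fold of 2.09, adjusted p = 0.000468, Adamts4, an aggrecanase, was at least 2.9-fold higher, adjusted p = 0.00576, and Tnc, the matrix protein tenascin, had 9.86, 10.21 and 10.15 in MACA lungs, against 8.10, 8.24, 8.46 and 8.45 in HBSS lungs (log2 fold 1.76 ± 0.26 (SE), adjusted p = 0.000277). Mmp8, the neutrophil collagenase, did not pass (log2 fold 0.39, adjusted p = 0.57). Of 18 measured genes of endothelial adhesion and vascular activation, 2 rose (11.1%, and all also in the set-term fit) and 3 fell (16.7%, and 3 in the set-term fit, 2 shared, and 0 without MACA replicate 2), with a median log2 fold of -0.12. Selp, P-selectin, on which leukocytes roll, had 8.19, 8.75 and 8.63 in MACA lungs, against 6.22, 6.08, 7.02 and 6.14 in HBSS lungs (log2 fold 2.16 ± 0.35 (SE), adjusted p = 0.000555). Its highest vehicle lung was again replicate 3. Of 17 measured prostaglandin and leukotriene genes, 5 rose (29.4%, and 3 in the set-term fit, 3 shared, and 3 without MACA replicate 1 or HBSS replicate 4) and 3 fell (17.6%, and 1 in the set-term fit, 0 shared, and 1 without MACA replicate 2), with a median log2 fold of -0.01. Ltc4s, the leukotriene C4 synthase, was at least 2.35-fold lower, adjusted p = 0.00167. Ptger4, a prostaglandin E2 receptor, had a log2 fold of 1.44, adjusted p = 4.15e-05. Of 16 measured apoptosis and inflammasome genes, 7 rose (43.8%, and 3 in the set-term fit, 3 shared) and 1 fell (6.25%, and the same in the set-term fit, and 0 to 2 without BSA 3 h replicate 2, MACA replicate 2, BSA replicate 2 or HBSS replicate 4), with a median log2 fold of 0.30 (-0.24 without scaling). Nlrp3, the sensor of an inflammasome, had a log2 fold of 1.21, adjusted p = 0.00259. Of 22 measured airway junction, mucus and ion transport genes, 2 rose (9.09%, and 5 in the set-term fit, 2 shared) and 2 fell (9.09%, and 4 in the set-term fit, 1 shared, and 0 to 1 without MACA 3 h replicate 2, BSA 3 h replicates 1 or 3, HBSS 3 h replicate 1, MACA replicates 1, 2 or 3 or HBSS replicates 1, 2 or 4), with a median log2 fold of -0.05. These shares are close to those of all genes in both directions. The chloride channel Cftr was among the lower ones (log2 fold -0.70, adjusted p = 0.0164). Of 23 measured immediate early genes, 5 rose (21.7%, and 6 in the set-term fit, 3 shared, and 3 to 8 without MACA replicate 2 or HBSS replicate 3) and 3 fell (13%, and 1 in the set-term fit, 0 shared, and 0 to 5 without MACA 3 h replicate 3, MACA replicates 2 or 3 or HBSS replicates 1, 3 or 4), with a median log2 fold of 0.33 (-0.35 without scaling). Junb, a subunit of the AP-1 factor, had 9.82, 10.28 and 9.98 in MACA lungs, against 8.5, 8.20, 9.01 and 8.48 in HBSS lungs (log2 fold 1.48 ± 0.26 (SE), adjusted p = 0.00116). Egr3 had a lower mean in MACA lungs and did not pass (adjusted p = 0.0562). Adamts4 (adjusted p = 0.0959), Ltc4s (adjusted p = 0.0684) and Nlrp3 (adjusted p = 0.0566) did not pass in the set-term fit. Cftr lost its call without MACA replicate 2 or HBSS replicate 2 (adjusted p up to 0.0888).

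**Figure D2:**
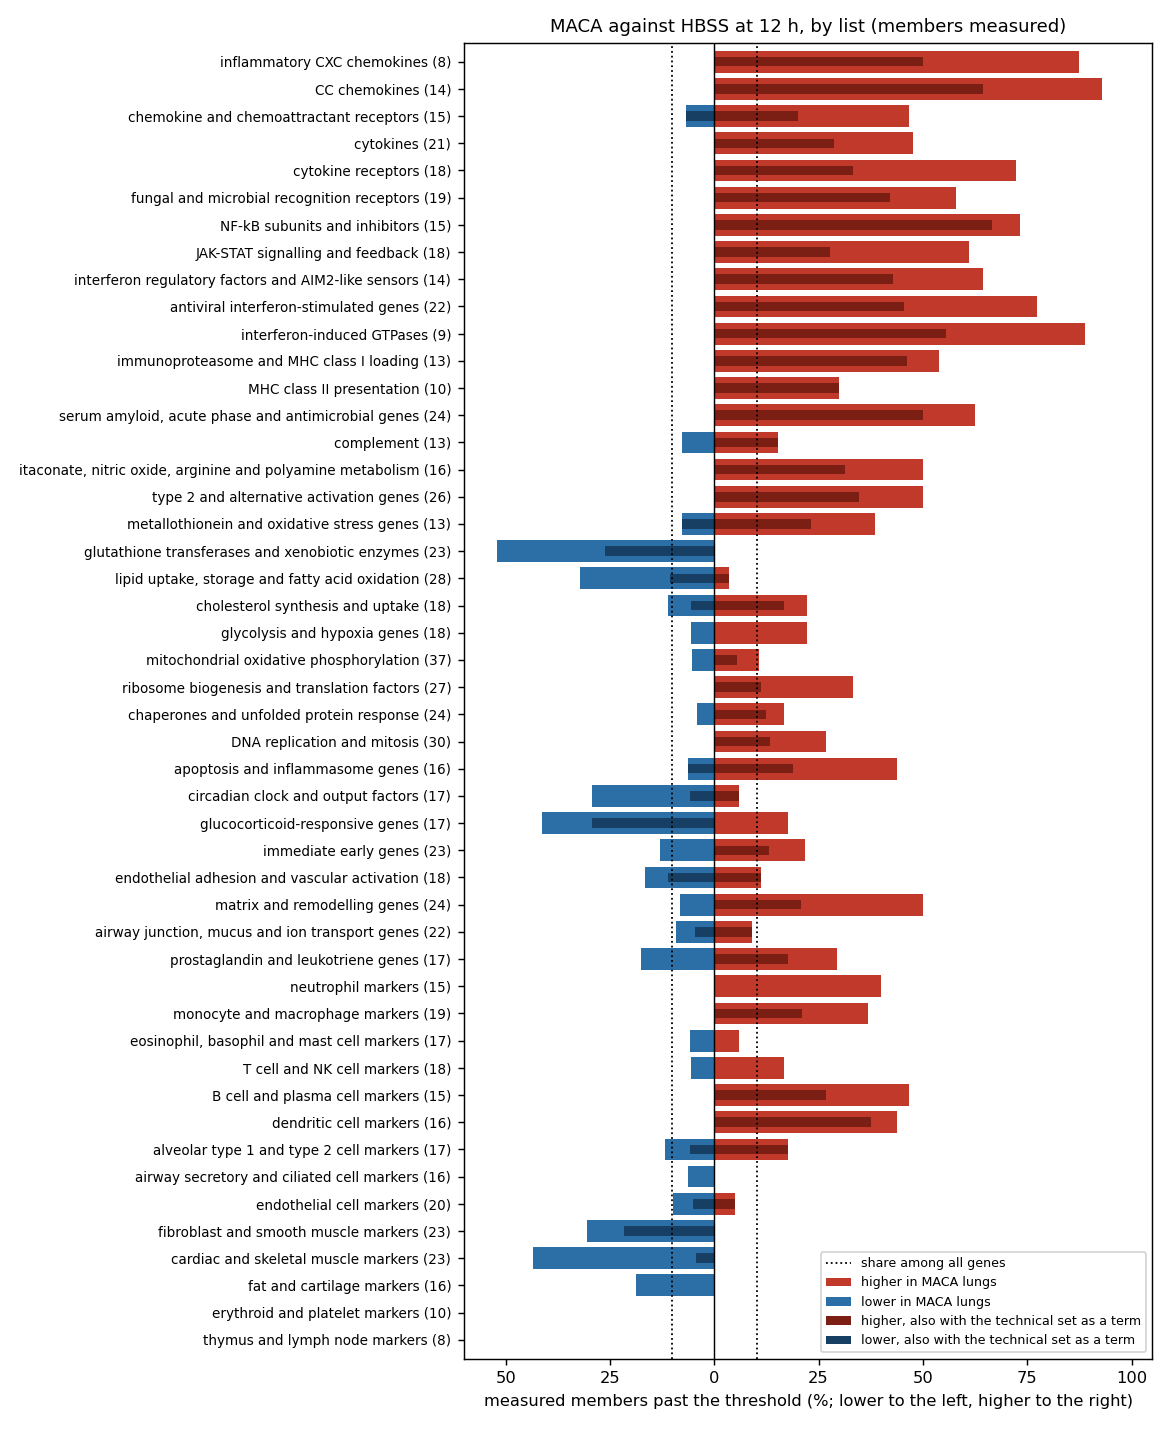
Share of each list's measured members (number in parentheses) past the threshold, higher in MACA lungs to the right and lower to the left, with narrow dark bars for those that passed in both fits and dotted lines at 10.2% and 10.1%, the shares among all genes. Chemokine, NF-kB and interferon lists reach furthest right, and the xenobiotic, glucocorticoid-responsive, cardiac and skeletal muscle, and lipid lists furthest left.

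The 20 largest falls were of mixed function. Car3, a carbonic anhydrase of fat and muscle, had 5.69, 6.21 and 6.49 in MACA lungs, against 9.59, 9.46, 9.20 and 10.87 in HBSS lungs (log2 fold -3.65 ± 0.81 (SE), adjusted p = 0.00488). Gsta2, a glutathione transferase, had 6.11, 6.29 and 6.52 in MACA lungs, against 9.88, 10.42, 8.48 and 9.41 in HBSS lungs (log2 fold -3.24 ± 0.48 (SE), adjusted p = 0.000317). Acaa1b, a peroxisomal thiolase of fatty acid oxidation, had 5.46, 4.95 and 5.58 in MACA lungs, against 8.32, 8.28, 6.90 and 7.59 in HBSS lungs (at least 3.85-fold lower, adjusted p = 0.000101). The groups were apart for all of these, and HBSS replicate 4 was the highest for Car3. Bex2 had 6.80, 6.86 and 7.55 in MACA lungs, against 9.57, 9.44, 8.85 and 9.03 in HBSS lungs (log2 fold -2.15 ± 0.23 (SE), adjusted p = 3.32e-05). Ogn, the small matrix proteoglycan osteoglycin, had 11.06, 10.40 and 10.77 in MACA lungs, against 12.32, 12.45, 12.32 and 12.37 in HBSS lungs (log2 fold -1.62 ± 0.14 (SE), adjusted p = 8.94e-06). Ogn stayed a bright transcript in both groups. Scara5, a ferritin receptor of stromal cells, had 6.10, 5.21 and 6.25 in MACA lungs, against 7.58, 7.87, 7.31 and 8.02 in HBSS lungs (log2 fold -1.84 ± 0.25 (SE), adjusted p = 0.000173). Snai2, a transcription factor of mesenchymal cells, had 7.56, 6.64 and 6.62 in MACA lungs, against 8.46, 8.73, 8.58 and 8.57 in HBSS lungs (log2 fold -1.64 ± 0.30 (SE), adjusted p = 0.00131). Among the other members of the 20 largest falls were Gria1, a glutamate receptor subunit (log2 fold -1.77, adjusted p = 0.000201), and Syt17, a synaptotagmin (log2 fold -1.59, adjusted p = 4.5e-05). Itih2, a hyaluronan-binding serum protein, had 5.45, 6.01 and 5.97 in MACA lungs, against 7.64, 8.19, 6.53 and 7.06 in HBSS lungs (log2 fold -1.54 ± 0.36 (SE), adjusted p = 0.00637). Fabp4, Nrip2, Cntn4, Cyp8b1, Sprr2k and Krtap5-1 were also in that group. Sprr2k, Krtap5-1 and Cyp8b1 lay near the noise level in HBSS lungs and below it on every MACA array. Car3 (adjusted p = 0.165), Fabp4 (adjusted p = 0.557), Nrip2 (adjusted p = 0.535), Cyp8b1 (adjusted p = 0.146), Sprr2k (adjusted p = 0.226) and Krtap5-1 (adjusted p = 0.116) did not pass in the set-term fit. Fabp4 lost its call without MACA replicates 1 or 2 or HBSS replicate 4 (adjusted p up to 0.0977). Nrip2 lost its call without MACA replicates 2 or 3 or HBSS replicate 1 (adjusted p up to 0.0921).

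12 of 23 measured glutathione transferases and xenobiotic enzymes fell (52.2%, and 7 in the set-term fit, 6 shared), with a median log2 fold of -0.44. After Gsta2 the furthest were Aldh3a1, an aldehyde dehydrogenase (log2 fold -1.5, adjusted p = 0.000597), and Fmo2, a flavin monooxygenase of lung (log2 fold -1.16, adjusted p = 0.0162). Nqo1, a quinone reductase and the 1 lower gene of the oxidative stress list, had 6.45, 6.15 and 5.53 in MACA lungs, against 8.05, 8.09, 7.04 and 7.33 in HBSS lungs (log2 fold -1.58 ± 0.27 (SE), adjusted p = 0.000785). The vehicle lungs split for Nqo1, with replicates 1 and 2 above replicates 3 and 4, and all 4 lay above the MACA lungs. Gsta3, a transferase of club cells, had a log2 fold of -0.95, adjusted p = 0.000328, and Gstm1 did not pass (log2 fold -0.44, adjusted p = 0.0814). Of 28 measured genes of lipid uptake, storage and fatty acid oxidation, 1 rose (3.57%, and 2 in the set-term fit, 1 shared) and 9 fell (32.1%, and 3 in the set-term fit, 3 shared, and 5 without MACA replicate 2), with a median log2 fold of -0.27. The summed intensity of fat and cartilage markers, a list that also holds Fabp4 and Cidea, was 464 to 581 in MACA lungs, against 1484 to 3621 in HBSS lungs, and its part in the lipid result was not tested. Fabp4, a fatty acid carrier of fat, endothelium and macrophages, had 6.70, 6.62 and 7.28 in MACA lungs, against 8.78, 8.52, 8.42 and 9.52 in HBSS lungs (log2 fold -1.95 ± 0.58 (SE), adjusted p = 0.0253). Cd36, a fatty acid and lipoprotein receptor, had a log2 fold of -0.61, adjusted p = 0.000785. Lpl, lipoprotein lipase, went the other way (log2 fold 0.61, adjusted p = 0.000899, and log2 fold -0.044 without scaling). Of 18 measured genes of cholesterol synthesis and uptake, 4 rose (22.2%, and 3 in the set-term fit, 3 shared, and 2 without MACA replicates 1, 2 or 3 or HBSS replicate 2) and 2 fell (11.1%, and 1 in the set-term fit, 1 shared), with a median log2 fold of 0.19 (-0.47 without scaling). The furthest was Ch25h, a hydroxylase of activated macrophages that turns cholesterol into a signalling oxysterol, with 9.51, 10.07 and 9.66 in MACA lungs, against 6.84, 7.24, 7.71 and 6.34 in HBSS lungs (log2 fold 2.72 ± 0.42 (SE), adjusted p = 0.000423). Stard4, a cholesterol carrier, had a log2 fold of -0.52, adjusted p = 0.00407. Of 17 measured glucocorticoid-responsive genes, 3 rose (17.6%, and none in the set-term fit) and 7 fell (41.2%, and 6 in the set-term fit, 5 shared, and 4 without MACA replicate 2 or HBSS replicate 1), with a median log2 fold of -0.22. Klf15, a glucocorticoid-induced transcription factor, had 7.38, 7.07 and 7.76 in MACA lungs, against 9.21, 9.31, 8.55 and 8.78 in HBSS lungs (log2 fold -1.56 ± 0.29 (SE), adjusted p = 0.00151), and Tsc22d3 (Gilz), an anti-inflammatory target, had 9.95, 9.19 and 9.69 in MACA lungs, against 11.48, 11.37, 10.68 and 10.45 in HBSS lungs (log2 fold -1.38 ± 0.29 (SE), adjusted p = 0.0033). The list's risers included Lcn2, an iron-sequestering protein that is also an acute phase gene (log2 fold 1.94, adjusted p = 0.00354). Of 17 measured circadian clock and output factors, 1 rose (5.88%, and the same in the set-term fit, and 2 without MACA 3 h replicate 3 or BSA replicate 3) and 5 fell (29.4%, and 3 in the set-term fit, 1 shared, and 2 to 3 without MACA replicates 1 or 2 or HBSS replicates 2 or 4), with a median log2 fold of -0.41. Per1, a repressor of the clock, had 6.72, 6.50 and 7.38 in MACA lungs, against 8.80, 8.53, 7.25 and 7.95 in HBSS lungs (log2 fold -1.26 ± 0.36 (SE), adjusted p = 0.0202). The highest MACA lung lay above the lowest HBSS lung for Per1. Bhlhe40, a repressor of clock genes that immune stimuli also induce, had a log2 fold of 1.46, adjusted p = 7.25e-05. Fmo2 (adjusted p = 0.258) and Lcn2 (adjusted p = 0.0734) did not pass in the set-term fit. Fmo2 lost its call without MACA replicate 2 (adjusted p = 0.113). Per1 lost its call without MACA replicates 1 or 2 or HBSS replicates 1 or 2 (adjusted p up to 0.106).

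**Figure D3:**
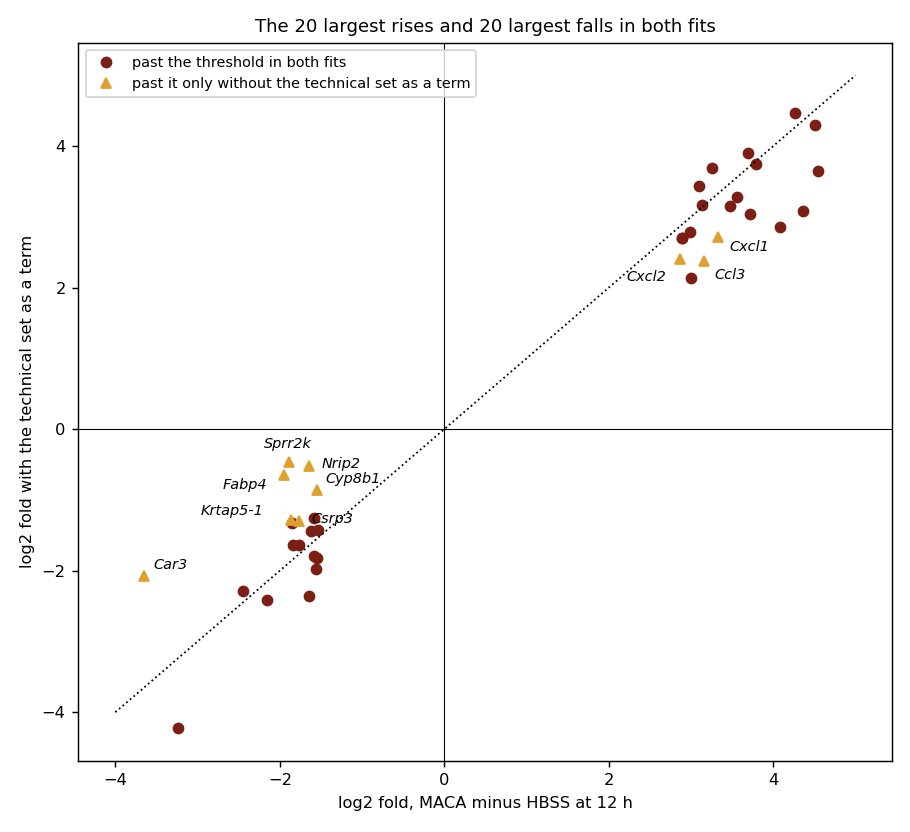
Log2 fold of the 20 largest rises and 20 largest falls, MACA minus HBSS at 12 h, in the fit as described (x axis) and in the set-term fit (y axis), with the line of equal folds dotted. All 40 keep their direction, and the 10 named triangles, 3 rises and 7 falls, did not pass with the term.

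Among genes of growth and energy metabolism, the ribosome and replication lists had a larger share of risers than the 10.2% of all genes. 9 of 27 measured ribosome biogenesis and translation factors rose (33.3%, and 4 in the set-term fit, 3 shared, and 2 to 5 without MACA replicate 2 or HBSS replicates 3 or 4), with a median log2 fold of 0.43 (-0.21 without scaling), and 1 lower in the set-term fit. Nop56, a nucleolar protein of ribosomal RNA processing, had a log2 fold of 1.09, adjusted p = 0.0127, and Bop1 a log2 fold of 0.67, adjusted p = 0.000269. 8 of 30 measured genes of DNA replication and mitosis rose (26.7%, and 5 in the set-term fit, 4 shared, and 3 to 5 without MACA replicates 2 or 3 or HBSS replicate 2), with a median log2 fold of 0.25 (-0.34 without scaling). Mcm5, a part of the replicative helicase, had 8.07, 8.55 and 8.21 in MACA lungs, against 6.70, 6.86, 7.26 and 7.12 in HBSS lungs (log2 fold 1.29 ± 0.17 (SE), adjusted p = 0.000123). Tk1, a thymidine kinase of dividing cells, had a log2 fold of 1.24, adjusted p = 0.0104, and Mcm6, another helicase subunit, a log2 fold of 1.07, adjusted p = 0.00126. Of 37 measured genes of oxidative phosphorylation, 4 rose (10.8%, and 6 in the set-term fit, 2 shared) and 2 fell (5.41%, and none in the set-term fit, and 0 to 1 without BSA 3 h replicate 3, HBSS 3 h replicate 2, MACA replicates 1, 2 or 3 or HBSS replicates 1, 2 or 3), with a median log2 fold of 0.06. Cox5a, a subunit of cytochrome oxidase, had the largest of these (log2 fold 0.55, adjusted p = 0.000415, and log2 fold -0.12 without scaling). Of 18 measured glycolysis and hypoxia genes, 4 rose (22.2%, and 3 in the set-term fit, 0 shared, and 1 to 2 without MACA replicates 1 or 2 or HBSS replicate 2) and 1 fell (5.56%, and 1 in the set-term fit, 0 shared), with a median log2 fold of 0.13 (-0.53 without scaling). Slc16a3, a lactate exporter, was at least 1.48-fold higher, adjusted p = 0.0179. Of 24 measured chaperones and genes of the unfolded protein response, 4 rose (16.7%, and 3 in the set-term fit, 3 shared, and 2 without MACA replicates 1 or 2 or HBSS replicate 3) and 1 fell (4.17%, and 1 in the set-term fit, 0 shared, and 0 to 2 without MACA 3 h replicate 2, MACA replicate 1 or HBSS replicate 4), with a median log2 fold of 0.07. Hspa1a, an inducible heat shock protein, had a log2 fold of -1.24, adjusted p = 0.0178, and Dnajb11, a chaperone of the endoplasmic reticulum, a log2 fold of 0.76, adjusted p = 0.000177. For oxidative phosphorylation the share that rose was close to the 10.2% of all genes. Nop56 (adjusted p = 0.604), Slc16a3 (adjusted p = 0.312) and Hspa1a (adjusted p = 0.121) did not pass in the set-term fit. Nop56 lost its call without MACA replicate 2 (adjusted p = 0.0712). Tk1 lost its call without MACA replicate 2 (adjusted p = 0.0729). Slc16a3 lost its call without MACA replicate 2 or HBSS replicate 2 (adjusted p up to 0.0731). Hspa1a lost its call without MACA replicate 1 or HBSS replicate 4 (adjusted p up to 0.0793).

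Some of the markers of blood-borne cells were higher in the MACA lungs. 6 of 15 measured neutrophil markers rose (40%, and none in the set-term fit, and 3 without MACA replicates 1 or 2), with a median log2 fold of 0.74. Mpo and Elane, granule genes of immature neutrophils, were under the noise level on all 7 arrays. The risers included S100a8, a calprotectin chain (log2 fold 1.5, adjusted p = 0.0456), and Lcn2, Cxcr2, Csf3r and Il1r2 given above. 7 of 19 measured monocyte and macrophage markers rose (36.8%, and 4 in the set-term fit, 4 shared), with a median log2 fold of 0.40 (-0.26 without scaling), and 1 lower in the set-term fit. Itgam, an integrin of monocytes and neutrophils, was at least 2.29-fold higher, adjusted p = 5.33e-05, and Fcgr1, an IgG receptor, had a log2 fold of 1.10, adjusted p = 0.000924. Their summed intensity was 32643 to 35992 in MACA lungs, against 30322 to 32937 in HBSS lungs. 7 of 16 measured dendritic cell markers rose (43.8%, and 7 in the set-term fit, 6 shared), with a median log2 fold of 0.36 (-0.23 without scaling), and 1 lower in the set-term fit. Fscn1, an actin bundler of mature dendritic cells, had a log2 fold of 1.31, adjusted p = 0.0166, Batf3, a factor of cross-presenting dendritic cells, a log2 fold of 1.24, adjusted p = 0.000875, and Cd83, a maturation marker, a log2 fold of 1.12, adjusted p = 0.00249. The dendritic sum was 4559 to 5068 in MACA lungs, against 2367 to 2776 in HBSS lungs. It includes the chemokines Ccl17 and Ccl22, given above in other lists, and the neutrophil sum likewise includes Lcn2. The part of these genes in the sums was not tested. 7 of 15 measured B cell and plasma cell markers rose (46.7%, and 6 in the set-term fit, 4 shared, and 2 to 4 without MACA replicates 1 or 2 or HBSS replicates 2 or 4), with a median log2 fold of 0.60 (-0.07 without scaling), and 1 lower in the set-term fit. Fcer2a, the low-affinity IgE receptor, had 8.90, 8.85 and 8.60 in MACA lungs, against 6.95, 6.42, 6.76 and 5.82 in HBSS lungs (log2 fold 2.30 ± 0.30 (SE), adjusted p = 0.000141), and Cd79a, a chain of the B cell receptor, had a log2 fold of 1.00, adjusted p = 0.0318. Their sum was 5745 to 7585 in MACA lungs, against 4202 to 4951 in HBSS lungs. Of 18 measured T cell and NK cell markers, 3 rose (16.7%, and none in the set-term fit, and 0 to 5 without MACA replicates 1 or 2 or HBSS replicates 1, 2, 3 or 4) and 1 fell (5.56%, and none in the set-term fit, and 0 without MACA replicate 2), with a median log2 fold of 0.37 (-0.13 without scaling). Cd3e, a chain of the T cell receptor complex, did not pass (log2 fold 1.12, adjusted p = 0.0668), and the sum was 2237 to 3586 in MACA lungs, against 1309 to 2667 in HBSS lungs. Of 17 measured eosinophil, basophil and mast cell markers, 1 rose (5.88%, and none in the set-term fit, and 0 to 2 without MACA replicate 2 or HBSS replicate 3) and 1 fell (5.88%, and 1 in the set-term fit, 0 shared, and 0 without MACA replicates 2 or 3 or HBSS replicates 1, 2 or 3), with a median log2 fold of 0.05. In this list 13 of 17 members were under the noise level on all 7 arrays, among them Prg2, Epx, Ccr3 and Mcpt4, and its sum was 2639 to 3078 in MACA lungs, against 2966 to 3478 in HBSS lungs. The part of neutrophils, monocytes, dendritic cells and lymphocytes in the other results was not tested. S100a8 (adjusted p = 0.292) and Fscn1 (adjusted p = 0.685) did not pass in the set-term fit. S100a8 lost its call in 14 of the 21 fits that left out 1 array (adjusted p up to 0.174, without MACA replicate 1). Fscn1 lost its call without MACA replicate 2 (adjusted p = 0.0723). Cd79a lost its call without MACA replicates 1 or 2 or HBSS replicates 2, 3 or 4 (adjusted p up to 0.163).

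**Figure D4:**
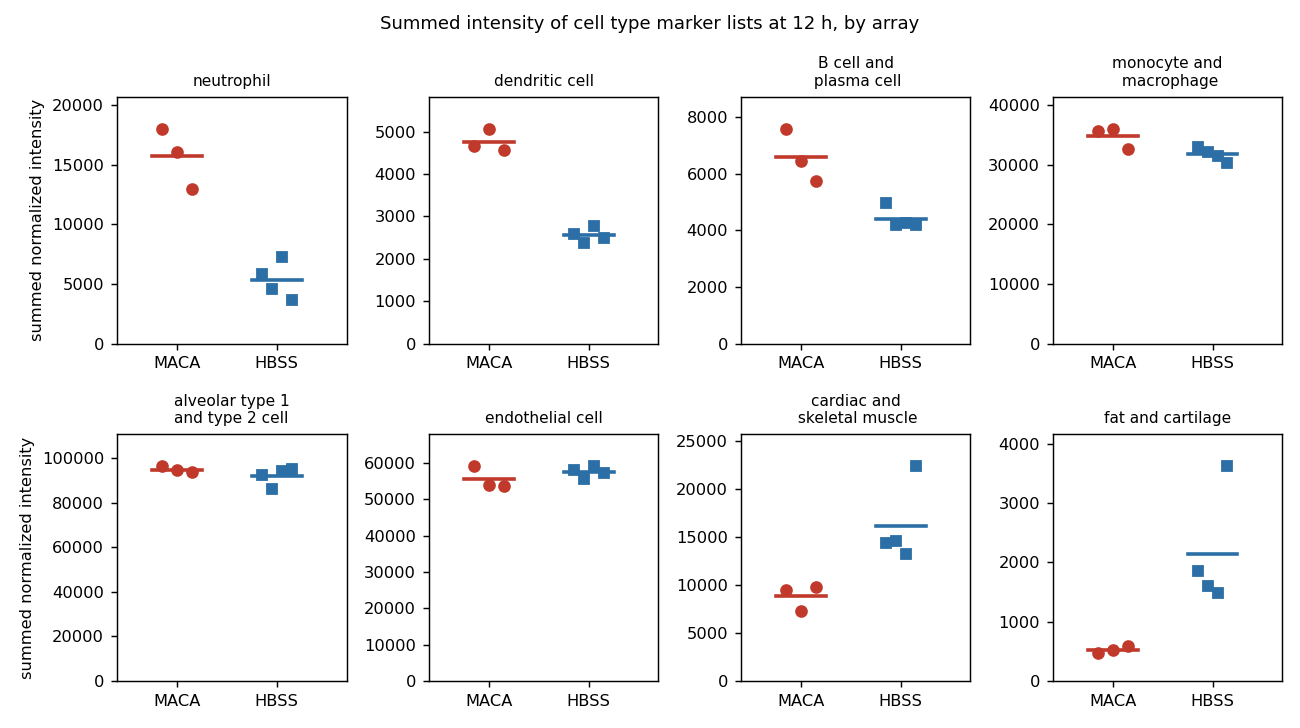
Summed normalized intensity of 8 marker lists on each array, MACA 12 h circles left of HBSS 12 h squares, with bars at group means and each axis from 0. The neutrophil, dendritic and B cell sums are higher on all 3 MACA arrays than on any HBSS array, and the muscle and fat sums are lower, with HBSS replicate 4 highest in both. The dendritic sum includes the chemokines Ccl17 and Ccl22, and the neutrophil sum includes the acute phase gene Lcn2.

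Among resident cells, the marker sums of alveolar epithelium were 93812 to 96478 in MACA lungs, against 86172 to 95036 in HBSS lungs, and those of endothelium 53570 to 59146 in MACA lungs, against 55514 to 59061 in HBSS lungs. Of 17 measured alveolar type 1 and type 2 cell markers, 3 rose (17.6%, and all also in the set-term fit) and 2 fell (11.8%, and 1 in the set-term fit, 1 shared, and 1 without MACA replicate 2), with a median log2 fold of -0.01. Of 20 measured endothelial cell markers, 1 rose (5%, and 2 in the set-term fit, 1 shared, and 2 without MACA replicate 3) and 2 fell (10%, and 2 in the set-term fit, 1 shared, and 1 without MACA replicate 2), with a median log2 fold of -0.08. Ednrb, an endothelin receptor, had the largest of the endothelial changes (log2 fold -1.32, adjusted p = 0.000578). 1 of 16 measured airway secretory and ciliated cell markers fell (6.25%, and none in the set-term fit, and 2 without BSA replicates 2 or 3), with a median log2 fold of -0.16. 7 of 23 measured fibroblast and smooth muscle markers fell (30.4%, and 6 in the set-term fit, 5 shared), with a median log2 fold of -0.16, and 1 higher in the set-term fit. Mfap5, an elastic fibre protein, had 8.29, 8.20 and 8.66 in MACA lungs, against 9.63, 9.41, 9.71 and 9.83 in HBSS lungs (log2 fold -1.26 ± 0.16 (SE), adjusted p = 0.00012), and the proteoglycan Lum, lumican, and the collagen Col14a1 fell beside it, with a log2 fold of -1.15, adjusted p = 0.00176 for Lum and a log2 fold of -1.10, adjusted p = 0.000964 for Col14a1. The fibroblast and smooth muscle sum was 54989 to 59611 in MACA lungs, against 58434 to 72613 in HBSS lungs. 10 of 23 measured cardiac and skeletal muscle markers fell (43.5%, and 1 in the set-term fit, 1 shared, and 5 without MACA replicate 2 or HBSS replicate 4), with a median log2 fold of -0.82. Tcap, telethonin of the sarcomere, had 6.50, 5.99 and 6.33 in MACA lungs, against 8.08, 8.18, 7.79 and 8.44 in HBSS lungs (log2 fold -1.85 ± 0.23 (SE), adjusted p = 7.74e-05), Csrp3, a muscle LIM protein, had 6.71, 6.83 and 7.20 in MACA lungs, against 8.48, 8.57, 8.24 and 9.41 in HBSS lungs (log2 fold -1.77 ± 0.33 (SE), adjusted p = 0.00176), and Pln, phospholamban, had a log2 fold of -1.35, adjusted p = 0.00225. Pulmonary veins of the mouse carry cardiac muscle, and heart or body wall tissue can also adhere to a dissected lung. The muscle sum was 7321 to 9833 in MACA lungs, against 13249 to 22394 in HBSS lungs. 3 of 16 measured fat and cartilage markers fell (18.8%, and none in the set-term fit, and 1 without MACA replicate 1), with a median log2 fold of -0.41, and 1 higher in the set-term fit. Of the 16, 8 were under the noise level on all 7 arrays. Adipoq, the fat hormone adiponectin, had a lower mean in MACA lungs and did not pass (adjusted p = 0.153). Cidea, a lipid droplet protein of fat, fell (at least 1.2-fold lower, adjusted p = 0.0174). How much of that tissue each lung sample held was not tested. Csrp3 (adjusted p = 0.0541), Pln (adjusted p = 0.0759) and Cidea (adjusted p = 0.111) did not pass in the set-term fit. Cidea lost its call without MACA replicate 1 (adjusted p = 0.0948).

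The MACA to HBSS difference at 12 h was then set against that at 3 h, which shares no array with it. The interaction passed for 484 genes (3.91%), with the fold higher at 12 h for 256 (2.07%) and lower for 228 (1.84%). The count was 161 without MACA replicate 2, 261 without HBSS replicate 2, 201 to 227 without HBSS 3 h replicates 3 or 1, 272 without MACA 3 h replicate 4 and 236 in the set-term fit. At 3 h 1006 of all 12393 genes passed in limma, and 2509 passed at 12 h. The designs differ, because at 12 h the technical set ran along with the treatment. At 3 h every HBSS array and MACA 3 h replicates 1 and 2 were in the high set, and MACA 3 h replicates 3 and 4 in the low. The counts are therefore not read as sizes of the response. Among the genes called at 12 h, 295 were also higher and 121 also lower at 3 h, and 18 had the opposite direction. Ccl24, Arg1 and Rnase2a, an eosinophil-associated ribonuclease (at least 1.61-fold higher, adjusted p = 0.000225 at 12 h), lay under the noise level on every 3 h array of both groups, so no 3 h fold is given. The interaction passed for each of them (adjusted p = 0.00973 for Ccl24, 0.0207 for Arg1 and 0.009 for Rnase2a). Pigr, the epithelial carrier of secretory antibody, had levels of 10.54, 11.20 and 11.26 in MACA lungs, against 8.08, 7.96, 9.58 and 9.56 in HBSS lungs, and log2 folds of 2.21 at 12 h and -0.76 at 3 h (difference 2.96 ± 0.63 (SE), adjusted p = 0.0191). Hsd11b2, which inactivates corticosterone, had 1.97 at 12 h and 0.09 at 3 h (difference 1.88 ± 0.48 (SE), adjusted p = 0.0416), and Clec4a2, a myeloid lectin, 1.24 at 12 h and -0.47 at 3 h (difference 1.71 ± 0.30 (SE), adjusted p = 0.009). Gga1 and Sorcs2 completed the 8 largest late rises. Ccl24, Arg1, Rnase2a, Gpr84, Saa2, Prss22 and Ccl20 were under the noise level on every array of at least 1 of the 4 groups, so their fitted folds and differences depend on the constant of 16. Zbp1 (2.39 at 12 h and 0.81 at 3 h, difference 1.58 ± 0.32 (SE), adjusted p = 0.0164), Gpr84 (3.47 at 12 h and 1.80 at 3 h, difference 1.67 ± 0.43 (SE), adjusted p = 0.0432), Saa2 (2.89 at 12 h and 1.40 at 3 h, difference 1.49 ± 0.39 (SE), adjusted p = 0.0455) and Mcm5 (1.29 at 12 h and -0.05 at 3 h, difference 1.34 ± 0.24 (SE), adjusted p = 0.00973) also had the larger fold at 12 h. Ccl24 (adjusted p = 0.0752), Pigr (adjusted p = 0.0743), Rnase2a (adjusted p = 0.0691), Hsd11b2 (adjusted p = 0.0981), Clec4a2 (adjusted p = 0.101), Zbp1 (adjusted p = 0.196), Gpr84 (adjusted p = 0.283) and Saa2 (adjusted p = 0.234) did not pass in the set-term fit. Arg1 lost its call without HBSS 3 h replicate 3 or MACA replicate 2 (adjusted p up to 0.0655). Pigr lost its call without HBSS 3 h replicate 3 or MACA replicate 2 (adjusted p up to 0.0544). Hsd11b2 lost its call in 12 of the 21 fits that left out 1 array (adjusted p up to 0.106, without HBSS 3 h replicate 1). Zbp1 lost its call without MACA replicate 2 (adjusted p = 0.0508). Gpr84 lost its call in 14 of the 21 fits that left out 1 array (adjusted p up to 0.0929, without HBSS 3 h replicate 2). Saa2 lost its call in 15 of the 21 fits that left out 1 array (adjusted p up to 0.117, without HBSS 3 h replicate 1).

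Other named genes had a lower fold at 12 h than at 3 h. Prss22, an airway serine protease, had levels of 4.66, 5.02 and 4.74 in MACA lungs, against 8.04, 7.64, 5.08 and 5.39 in HBSS lungs at 12 h, which did not pass (adjusted p = 0.121). The MACA lungs and HBSS replicates 3 and 4 were under the noise level for it. Prss22 had log2 folds of -1.73 at 12 h and 3.97 at 3 h (difference -5.70 ± 1.07 (SE), adjusted p = 0.012). Cldn4, a tight junction claudin, had levels of 5.45, 5.89 and 5.08 in MACA lungs, against 8.27, 8.04, 6.02 and 6.07 in HBSS lungs at 12 h (log2 fold -1.63, adjusted p = 0.0845), and log2 folds of -1.63 at 12 h and 2.81 at 3 h (difference -4.44 ± 0.91 (SE), adjusted p = 0.0168). In both, HBSS replicates 1 and 2 lay above replicates 3 and 4. Gsta2 had -3.24 at 12 h and 1.14 at 3 h (difference -4.38 ± 0.68 (SE), adjusted p = 0.00598), Nqo1 -1.58 at 12 h and 0.56 at 3 h (difference -2.15 ± 0.38 (SE), adjusted p = 0.00973), and Gem, a small GTPase of early responses, -0.48 at 12 h and 1.58 at 3 h (difference -2.06 ± 0.26 (SE), adjusted p = 0.00146). Ccl20 had -0.06 at 12 h and 4.55 at 3 h (difference -4.62 ± 1.25 (SE), adjusted p = 0.0494). Sprr2k, Lratd1 and Acaa1b completed the 8 lowest that the naming rule took. For Cxcl1 the log2 folds were 3.33 at 12 h and 4.05 at 3 h and for Ccl2 3.79 at 12 h and 4.30 at 3 h, and neither difference passed (adjusted p = 0.756 and 0.75). For the 12 h comparison itself, Prss22 (adjusted p = 0.0134), Cldn4 (adjusted p = 0.0433) and Gem (adjusted p = 0.0409) passed in the set-term fit. For the difference between times, Ccl20 lost its call in 16 of the 21 fits that left out 1 array (adjusted p up to 0.116, without HBSS 3 h replicate 3).

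**Figure D5:**
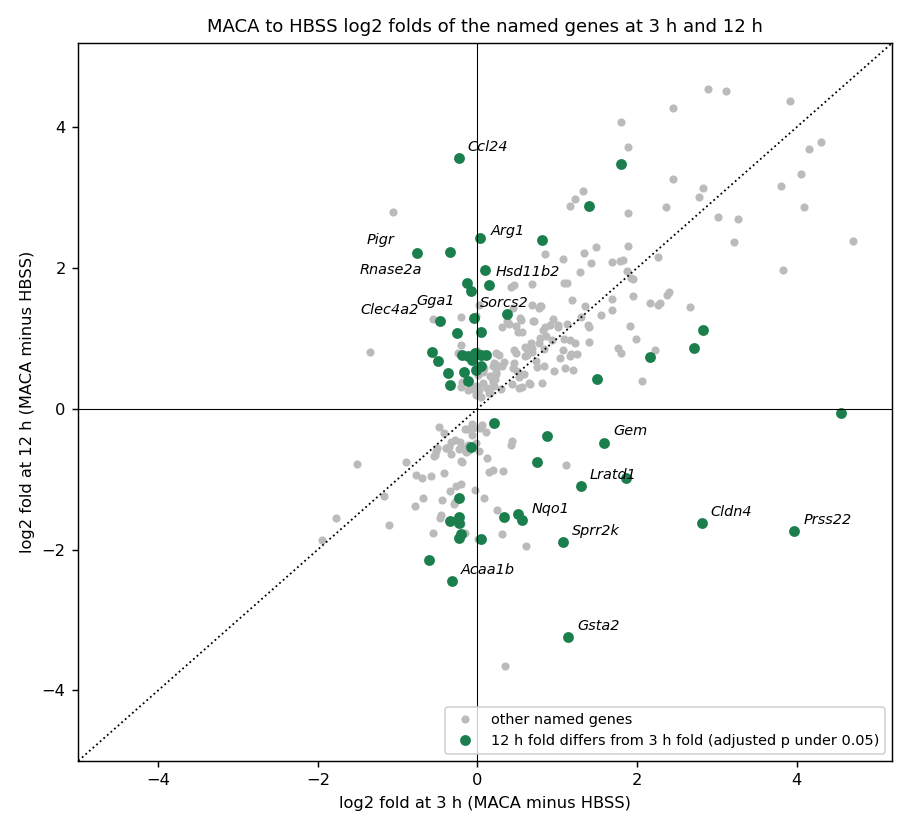
Log2 fold of MACA over HBSS at 3 h (x axis) and at 12 h (y axis) for the 301 genes that the naming rule selects, with genes whose 2 folds differ (interaction adjusted p under 0.05) in green, the line of equal folds dotted and the fitted folds used throughout. Points include genes under the noise level in 1 group or more. Pigr lies below 0 at 3 h and above 2 at 12 h, while Prss22 and Cldn4 lie above 2 at 3 h and below -1 at 12 h.

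A foreign protein without fungal products, BSA, gives further values for the same genes. These comparisons share the MACA or the HBSS arrays with the one described, so their values are given side by side with no test. Saa3 differed by 3.24 for MACA minus BSA and by 1.28 for BSA minus HBSS on the log2 scale at 12 h, and Ifit1 by 1.60 and 0.18. Genes that lay under the noise level on every HBSS array, such as Ccl24 and Cxcl10, are left out here. Slc26a4 gave 3.02 for MACA minus BSA and 1.25 for BSA minus HBSS, and Timp1 2.66 and 1.05. Gsta2 gave -2.38 and -0.86, and Nqo1 -1.09 and -0.49. The median over the neutrophil markers was 0.16 for MACA minus BSA and 0.40 for BSA minus HBSS. Over the B cell and plasma cell markers it was -0.02 for MACA minus BSA and 0.68 for BSA minus HBSS. Over the cardiac and skeletal muscle markers it was -1.15 for MACA minus BSA and 0.22 for BSA minus HBSS. BSA replicate 1 was the highest BSA lung for Saa3, Slc26a4 and Timp1. BSA replicates 1 and 2 share the high spike ratio of the MACA arrays. Against those 2 arrays alone, with no test, the MACA mean differed by 2.94 for Saa3, 1.75 for Ifit1, -3.39 for Gsta2 and -3.18 for Car3.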

How the data were processed

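Whole left lung RNA of 21 mouse lung samples was hybridized to Affymetrix expression arrays, 1 colour each. The deposited table holds an intensity per probe set that the authors made from the scans. How they summarized probes is not given in the sources used here. Values below 0 occur in it, and array medians differ, so it was not scaled to a common distribution.

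From 22690 probe sets, 64 control probe sets were left out. The 21 arrays were quantile normalized with negative values kept. Values below 0 were then set to 0, 16 was added and log2 taken. Of the remaining probe sets, 20380 had 1 gene symbol, 691 several and 1555 none. The brightest probe set stood for each of 12393 genes, of which 4956 had more than 1. The noise level was taken from the quantile-normalized values below 0: 95 percent of them are smaller in size than it. Where a gene lay under it on every array of 1 group, that group was set to the noise level and the mean of the other group was kept. The fold is then only a bound. An adjusted p printed beside a bound is that of the limma fit, in which dim values were not raised.

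Group means were fitted with limma 3.58.1 in R 4.3.3 over 6 groups, with 15 residual degrees of freedom and Benjamini-Hochberg adjustment over all genes. The scripts were tested on simulated data. The comparisons were MACA against HBSS at 12 h and its difference from 3 h. The labels call samples biological replicates. The number of arrays limits the precision, and 0 pairs of arrays held identical values.

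The arrays compared, the gene lists and the promoters shown were chosen with earlier results of these data known. Genes were named by rule: the 20 largest rises and 20 largest falls in log2 fold whose groups did not overlap, the 8 highest and 8 lowest for the difference between times, and in each of 48 lists up to 5 members that passed and up to 2 that did not, all with the higher group above noise. Of the genes selected, 150 are named. Ccl20 is given for its time difference because it is the CC chemokine that did not pass. Markers near 0 were named for the tissue check. Alternatives changed the scaling, the added constant, the noise floor, the filter on dim genes, the probe set rule, the arrays fitted, the replicate block, a term for the technical set and each array left out. Promoters are RefSeq's (GRCm38.p6).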

Additional observations from a re-analysis of the deposited data

Results flagged for a closer look

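Of 150 named genes, 12 had 1 of the 4 HBSS lungs at 12 h far from the other 3, with a gap to the nearest lung above Dixon's 95% critical share of the group's range. Chance gives about 1 in 20 for values free to vary, a rate that values held at the floor of the scale do not follow. For Tnfrsf9, Cxcr2 and Cxcl9 the other 3 lungs were all at that floor, 4.0, so any level above it gave the flag. Genes with all 4 lungs at the floor, such as Ccl24 and Tnf, could not be flagged. In 7 of the 12 the lung was HBSS replicate 3, and it was the highest of its group. Its log2 levels were 5.12 for Acod1, 5.62 for Tnfrsf9, 7.45 for Hsd11b2, 4.25 for Cxcr2, 8.48 for Ifit1, 10.04 for Iigp1 and 7.02 for Selp, and the Acod1, Tnfrsf9 and Cxcr2 values are under the noise level. HBSS replicate 4 was lowest for the calprotectin genes S100a8, at 8.42, and S100a9, at 8.28, and for Rsad2, at 8.52. HBSS replicate 1 was highest for Relb, at 8.13, and HBSS replicate 2 for Cxcl9, at 4.25, which is under the noise level.

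The MACA to HBSS log2 fold differed between 12 h and 3 h, by the interaction term in limma, for 16 genes named with that difference. It was larger at 12 h by 3.80 for Ccl24, 2.96 for Pigr, 2.57 for Rnase2a, 2.40 for Arg1, 1.88 for Hsd11b2, 1.71 for Clec4a2, 1.67 for Gpr84, 1.58 for Zbp1, 1.49 for Saa2 and 1.34 for Mcm5. The difference was -5.70 for Prss22, -4.62 for Ccl20, -4.44 for Cldn4, -4.38 for Gsta2, -2.15 for Nqo1 and -2.06 for Gem. Ccl24, Arg1, Rnase2a, Gpr84, Saa2, Prss22 and Ccl20 lay under the noise level on every array of at least 1 of the 4 groups, so their differences depend on the constant added before the log. No cause of these patterns was tested.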

How the results depend on the processing

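Of the named genes that passed at 12 h, all kept their direction under every alternative run, except that Lpl gave -0.044 and Cox5a -0.12 without scaling, where the common shift is larger than either fold. Adipoq, Ccl20, Ccr7, Cish, H2-Aa and Mmp8, which did not pass, changed sign under at least 1. The 12 h comparison called 2314 to 2576 genes, against 2509, with another constant, noise floor, dim filter, probe set rule, scaling to the 75th percentile, or only the compared arrays. Those runs shared from 1932 (only the compared arrays) to 2463 (constant of 64) of the 2509 calls. The mean of all probe sets shared 2010. Without scaling the 12 h comparison called 5574, of which 162 were higher and 5412 lower. With the technical set as a term it called 2008, of which 1125 were shared. Leaving out 1 array gave 1366 to 2670 genes, 712 to 1318 higher and 654 to 1352 lower, with the fewest without MACA 12 h replicate 2. The time difference called 484 genes. It called 2467 without scaling (22 higher, 2445 lower) and 236 with the technical set as a term (101 higher, 135 lower). Leaving out 1 array gave 161 to 570 genes, 69 to 304 higher and 92 to 266 lower, with the fewest again without MACA 12 h replicate 2. The cause of these shifts was not tested. Same-numbered MACA and HBSS arrays at 12 h deviated from their group means with correlations of 0.144, -0.106 and -0.00153, so the numbers were not taken as pairs. With the replicate block the 12 h comparison called 2530 genes and the time difference 305 (159 higher, 146 lower).

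Among the named genes, 35 lost and 6 gained a call at 12 h with the technical set as a term, and 8 lost the call of their time difference. With values under the noise level set to it, 6 named genes lost their 12 h call in limma. These were Krtap5-1 (adjusted p = 0.514), Cidea (adjusted p = 0.273), Cxcr2 (adjusted p = 0.206), Sprr2k (adjusted p = 0.16), Oas3 (adjusted p = 0.119) and S100a8 (adjusted p = 0.0579). Levels under the noise level of 40.9 have no order, and 98 called genes lay under it on all 7 arrays. The technical set and the treatment cannot be told apart within the 7 arrays, since all MACA lungs lie in the high set and all HBSS lungs in the low one.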
